A study of Oncorhynchus mykiss with 24 samples.

Results

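Indole-3-carbinol (I3C), an indole released from glucosinolates of cruciferous vegetables, was fed to rainbow trout at 1500 or 500 ppm, and the livers at these 2 doses were compared feature by feature. The comparison rests on 4 liver RNA samples of the 12 in the series, chosen by their titles, with 2 samples per dose and each sample on a dye-swapped pair of arrays, so that 8 of 24 arrays enter it. The fish were juveniles of the Mt. Shasta strain, 12 to 18 months old, kept on a semi-purified casein-based diet at a ration of 2.8% with I3C mixed in for 12 days. They were killed and sampled on day 13, and each treatment had 2 tanks holding 6 fish each. The other diets of the series, used here only beside the I3C doses, held 3,3'-diindolylmethane (DIM) at 500 or 1500 ppm, 17β-estradiol (E2) at 5 ppm or β-naphthoflavone (BNF) at 500 ppm. E2 is the main vertebrate estrogen, and BNF is a synthetic agonist of the aryl hydrocarbon receptor. The labels give these compounds as abbreviations, read here by their usual meanings. Every treated RNA was hybridised against the same reference, a pool of liver RNA from 12 fish of that age and strain fed 0.15% dimethyl sulfoxide, and this pool cancels in the difference between the doses. The labels do not say how many fish stand behind a treated sample, so a p-value reflects only how far these samples scatter, and some of that scatter may be technical.

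I3C is unstable in acid and condenses in the stomach to a mixture of products, of which DIM is the best known. Some of these products activate the aryl hydrocarbon receptor, whose classic liver target is the cytochrome P450 gene cyp1a, and in trout liver I3C and DIM are also known for estrogen-like effects. The series title names the agents tumor promoters of trout, and the question of the dose comparison is which liver transcripts differ between the lower and the higher amount in the diet.

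A feature here is a pair of adjacent spots, and its value in a sample is the log2 ratio to the vehicle pool, with arrays centred on their medians and the dye swap averaged. The array carries 4368 such features, of which 49 have a gene symbol, 32 symbols in all, while 4319 are unnamed here. Ratios are read as treated over pool, which is only the likely direction, because the numerator is not stated: channel 1, over channel 2, was Cy3 on every array. With Cy5 as the numerator every sign given here would turn. The log base is not stated either and is taken as 2; a natural log would make every difference larger. The number of arrays limits the precision. Ratios carry no level, so the labelled tissue could not be checked against liver markers; of the hepatocyte markers only ambp and antiprot1 were among the named features, and none of the leukocyte, endothelium or exocrine pancreas markers was.

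The 4 samples differed in quality measures that touch the comparison. The spots of a pair correlated at 0.81 to 0.94 on the 8 arrays. On the arrays of the other diets, which also enter the pooled spread, they correlated at 0.41 to 0.92. The dye-swapped arrays of a sample agreed poorly: with both turned to treated over pool, they correlated over features at 0.075 and -0.50 in the 1500 ppm samples and at -0.70 and -0.41 in the 500 ppm samples. Over the 4368 features the 1500 ppm samples correlated with each other at 0.75 and the 500 ppm samples at 0.37. Across doses, the first 500 ppm sample correlated with the 1500 ppm samples at 0.47 and 0.57, and the second at 0.19 and 0.41. The 500 ppm samples were thus not closer to each other than to the other dose in every pair. The second 500 ppm sample had 3.09% of its features above 1, against 0.549% in the first 500 ppm sample and 1.76% and 1.63% in the 1500 ppm samples. It had 0.16% below -1, against 0.229% in the first and 2.31% and 2.38% at 1500 ppm. The part of this difference between the 500 ppm samples in the results was not tested, and counts without each sample are given below.

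Between the livers of fish fed 1500 and 500 ppm of I3C, more features were called lower than higher at the higher dose, a balance that depended on the threshold and on centring. limma, fitted to all 12 samples with 1 mean per diet, called 47 features at a Benjamini-Hochberg adjusted p under 0.05, or 1.08% of those tested. Of these, 35 were lower at 1500 ppm (0.801% of all features) and 12 were higher (0.275%). At an unadjusted p under 0.05 the balance was the other way, with 281 higher and 223 lower, and 1150 features had both 1500 ppm samples above both 500 ppm samples against 941 below. Uncentred arrays gave 38 higher and 12 lower calls, since the median of all features then moved to 0.33. Of these uncentred calls, 22 were among the 47. In the main fit the 35 lower features had a median difference of -1.32 and the 12 higher ones a median of 1.07 on the log2 scale. The median over all features was -0.018. The standard errors of the 47 differences ran from 0.19 to 0.44, with 2 samples per dose. In bulk liver, fewer cells of a type and less RNA per cell cannot be told apart.

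Most of the 47 features lay further from the vehicle pool at 1500 than at 500 ppm, 46 of 47 by their means. Over all features it was 2406 of 4368. The 47 were picked for the difference between these same means, so their count follows in part from the choice. limma called 46 of the 47 against the pool at 1500 ppm, where 9.07% of all features were called, and 4 of the 47 at 500 ppm, where 0.755% were. The 35 lower features had a median ratio of -0.43 at 500 ppm, with means between -0.97 and -0.077, and a median of -1.79 at 1500 ppm, between -2.93 and -1.27. The 12 higher features had a median of 0.20 at 500 ppm, between -0.57 and 1.38, and 1.26 at 1500 ppm, between 0.50 and 2.93. All 35 lower features were below the pool at both doses, and 10 of the 12 higher features were above it at both. The other 2 higher features were below the pool at 500 ppm and above it at 1500 ppm by their means. Neither of these 2 was called against the pool at 500 ppm (limma adjusted p = 0.321 and 0.114). At 1500 ppm their limma adjusted p was 0.00265 and 0.061. Among all 4368 features, 2291 had both means on the same side of the pool. Of the 47, 30 had a 500 ppm mean within 0.5 of the pool, a smaller share than the 4070 of 4368 over all features.

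**Figure D1:**
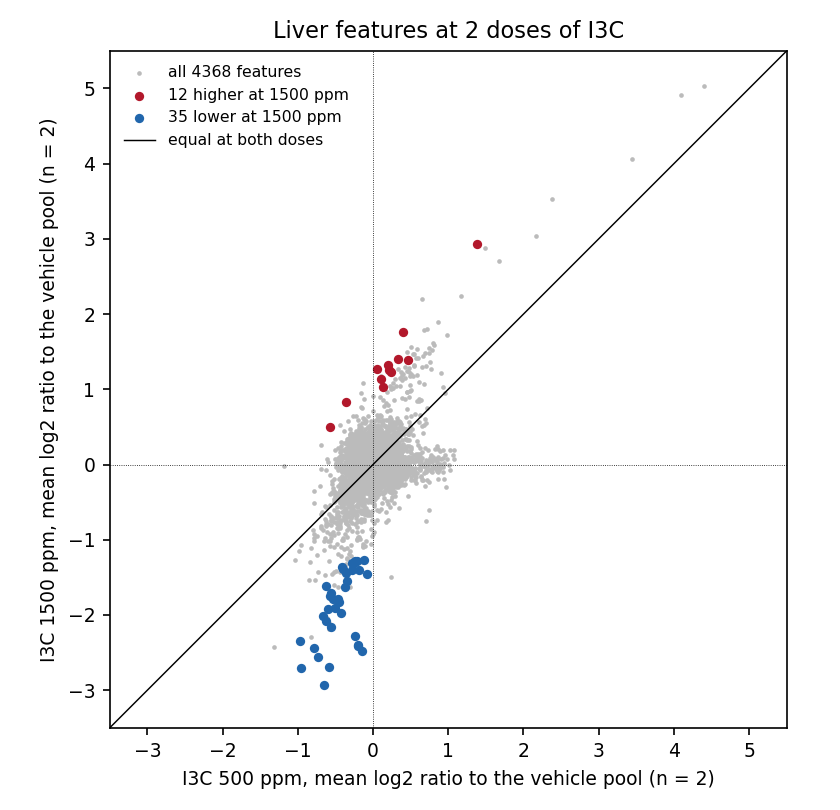
Mean log2 ratio to the vehicle pool at 500 ppm I3C (horizontal) and 1500 ppm (vertical) for all 4368 features, 2 samples per dose, with the line of equal values. The 35 features called lower at 1500 ppm lie below -1.27 on the vertical axis and the 12 called higher lie above 0.50; both axes share the vehicle pool.

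All 47 features had both 1500 ppm samples on the same side of both 500 ppm samples, a separation that 47.9% of all features also showed. All 47 had a difference of the same sign in the Cy3 arrays alone and in the Cy5 arrays alone, as did 67.8% of all features. The called features lay in 30 of the 48 print blocks of the array, with at most 3 in a block. An exact permutation test over 2 against 2 samples cannot give a two-sided p below 0.333. The calls thus rest on limma's spread, which was pooled over the 12 samples and moderated across features. With the I3C groups fitted alone, where only the 4 I3C samples gave the spread, 43 of the 47 were called.

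**Figure D2:**
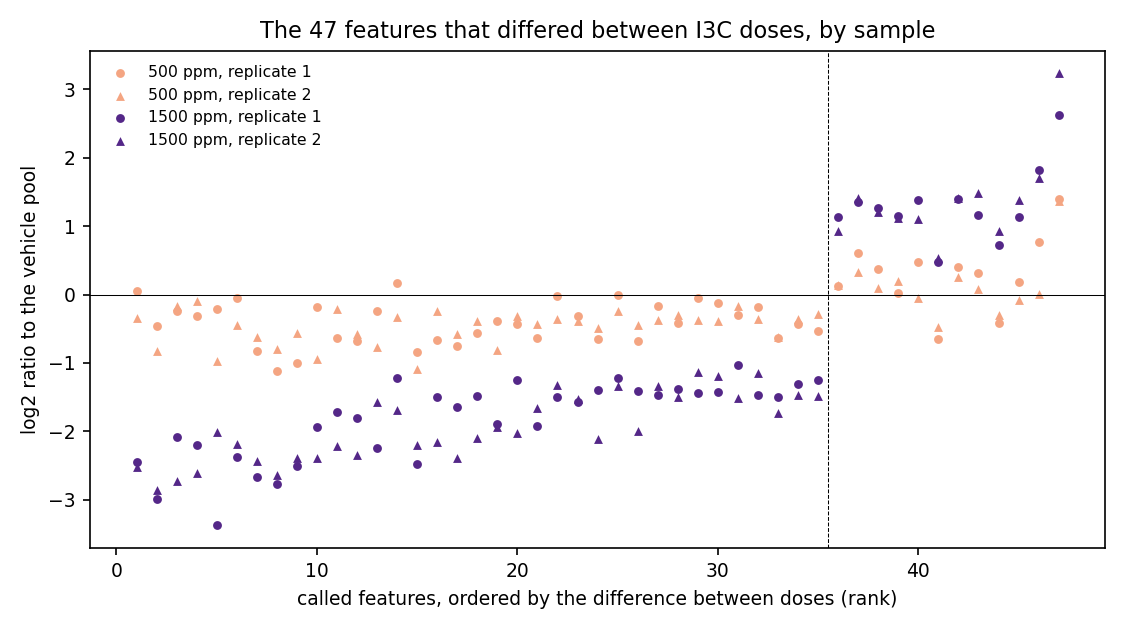
Log2 ratio to the vehicle pool (vertical) of the 47 called features, ordered by their difference between doses (horizontal, rank), with 1 point for each of the 4 I3C samples. Both 1500 ppm samples lie below both 500 ppm samples in the 35 features left of the dashed line and above them in the 12 to its right.

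The lower feature with the largest difference, spots 2030307 and 2030308, is unnamed here. Its log2 ratio was 0.045 and -0.35 in the 500 ppm samples and -2.44 and -2.53 in the 1500 ppm samples. The 500 ppm samples thus straddled the pool while both 1500 ppm samples were far below it, with a difference of -2.33 ± 0.28 (SE, n = 2 per dose, limma adjusted p = 0.00088). The next, spots 7040405 and 7040406, stood at -0.46 and -0.83 at 500 ppm and at -2.99 and -2.87 at 1500 ppm. Here the 500 ppm samples were already below the pool, and the difference was -2.28 ± 0.22 (limma adjusted p = 0.000175). On the single arrays of this feature the treated-over-pool ratio ran from -3.95 to -1.79 at 1500 ppm and from -1.57 to 0.36 at 500 ppm, without overlap. The feature was picked for its dose difference in these arrays, so this gap follows in part from the choice. The arrays of a dye-swapped pair are not separate samples.

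The higher feature with the largest difference, spots 10031205 and 10031206, stood at 1.40 and 1.36 in the 500 ppm samples and at 2.62 and 3.23 in the 1500 ppm samples. It was above the pool in all 4 samples, and the difference was 1.55 ± 0.25 (n = 2 per dose, limma adjusted p = 0.00979). The feature on spots 8021305 and 8021306 had 0.77 and 0.013 at 500 ppm and 1.82 and 1.70 at 1500 ppm. The 500 ppm samples were spread widely, both below the 1500 ppm samples, and the difference was 1.37 ± 0.25 (limma adjusted p = 0.0166). This call was lost without the first (adjusted p = 0.157) or second (0.109) 1500 ppm sample and without the second 500 ppm sample (0.195), and the call of spots 10031205 and 10031206 was lost without the second 1500 ppm sample (0.109).

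The count of calls depended on single samples and on scaling. No difference of the 47 changed sign in an alternative fit of paired spots (a filter on unlike spots left 45 of the 47 to compare). In fits that changed only the spread, such as array weights or signs as deposited, the sign could not change. The others reused these arrays on features picked for a large difference, so the kept signs are not separate evidence. Without a 1500 ppm sample, 15 (without replicate 1) or 14 (without replicate 2) features were called; without 500 ppm replicate 1 the count was 145, with 122 lower, and without replicate 2 it was 19; 4 of the 47, all lower, were called in all 4 of these fits. Arrays scaled to the same spread gave 0 calls (180 at an unadjusted p under 0.05), and the I3C groups fitted alone gave 51, 14 higher and 37 lower.

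The features with means above 2 at 500 ppm were not among the calls. At 500 ppm 5 features, all unnamed and picked here for their 500 ppm level, had means above 2, between 2.17 and 4.39. At 1500 ppm the same 5 had means of 3.03 to 5.04. Each was higher at 1500 ppm in both samples, by 0.62 to 1.15 with standard errors of 0.22 to 0.41. In that direction 26.3% of all features were separated. None of the 5 was called (limma adjusted p from 0.106 to 0.568), where 1.08% of all features were. Over all features the 95% interval of the dose difference lay within 1 of 0 for 3632 of 4368, or 83.2%, and its median half-width was 0.51.

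No feature with a gene symbol was called between the doses, 0 of 49 against 1.08% of all features. At so low a rate, none among 49 does not show that the named genes responded less. At an unadjusted p under 0.05 limma gave 11 of the 49, where the rate over all features was 11.5%. Of these 11, 8 were higher and 3 lower at 1500 ppm, against 6.43% and 5.11% of all features in those directions. The 11 are not separate genes: 5 are features of LOC100136295, from 3 clones. Over the 49 the median difference was 0.0047, with 25 higher and 24 lower, and 38 of the 49 had a 95% interval within 1 of 0. Both 1500 ppm samples lay above both 500 ppm samples in 10 of the 49, against 26.3% of all features, and below them in 9, against 21.5%. Against the pool, limma called 8 of the 49 at 1500 ppm, where 396 of all features (9.07%) were called, and 1 at 500 ppm, where 33 (0.755%) were. The 8 were LOC100136258, 1 LOC100136761 feature, antiprot1, 1 hsp90ab1 feature, LOC100135826, both ambp features and col1a2. The 1 called at 500 ppm was the same LOC100136761 feature. Of these 8, only the LOC100136761 feature was above the pool.

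**Figure D3:**
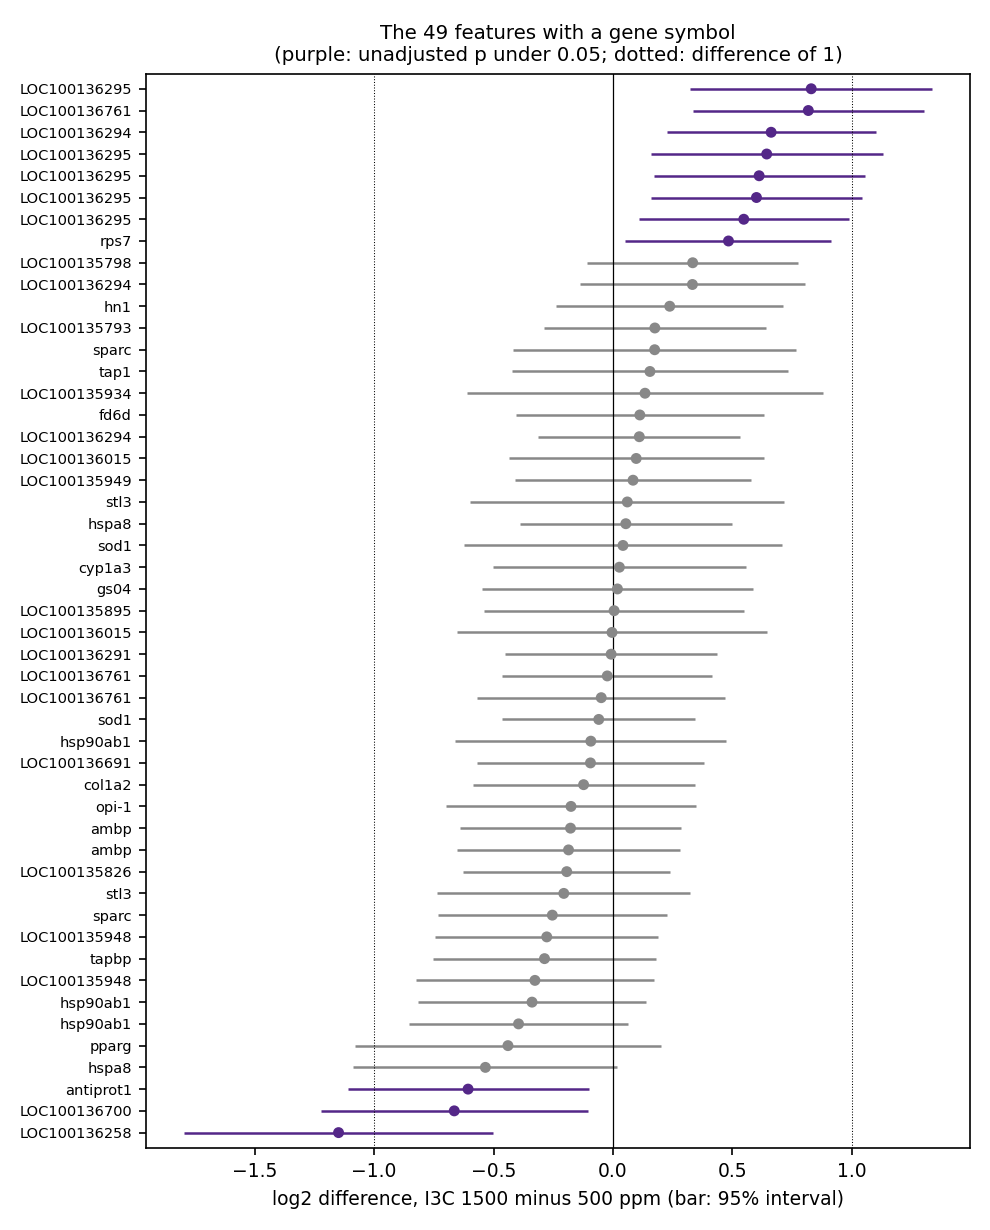
Log2 difference between 1500 and 500 ppm of I3C (horizontal) for the 49 features with a gene symbol, with bars for the 95% interval from limma. The differences run from -1.15 for LOC100136258 to 0.83 for a LOC100136295 feature, and the intervals of the 11 purple features, with an unadjusted p under 0.05, exclude 0.

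The named feature with the smallest p was LOC100136258, which the gene table lists as protein-coding with no synonym. Its ratio was 0.28 and -0.56 in the 500 ppm samples and -1.36 and -1.22 in the 1500 ppm samples. The 500 ppm samples fell on both sides of the pool while both 1500 ppm samples were below it, and the difference of -1.15 ± 0.30 missed the threshold (limma adjusted p = 0.1, 95% interval -1.80 to -0.50). It was called with array weights (limma adjusted p = 0.0486), in the fit of single arrays (0.0319) and with a replicate block (0.038). With arrays scaled alike (limma adjusted p = 0.987) or on the Cy3 (0.306) or Cy5 (0.808) arrays alone it was not called. Without 500 ppm replicate 2 the difference was -1.57, and without 500 ppm replicate 1 it was -0.73. Leaving out 1500 ppm replicate 1 or replicate 2 gave -1.08 or -1.22. The fit of single arrays counts the 2 arrays of a sample nearly as separate samples, at a within-sample correlation of -0.0083.

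LOC100136761 has 3 features from different clones, and they did not move together. One of them stood at 0.88 and 0.71 at 500 ppm and at 1.70 and 1.52 at 1500 ppm, above the pool in all 4 samples and without overlap between doses. Its difference was 0.82 ± 0.23 (limma adjusted p = 0.125), with a 95% interval of 0.33 to 1.30. It was called in the fit of single arrays (0.0461), which counts the arrays of a sample nearly as separate samples. With arrays scaled alike (limma adjusted p = 0.987) or on the Cy3 (0.697) or Cy5 (0.740) arrays alone it was not called. The 2 other features of that name differed by -0.049 and -0.024 between the doses, with both samples near the pool at each dose and a sign that turned under several settings. With the 3 averaged the difference was 0.25.

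All 5 features of LOC100136295 and all 3 of LOC100136294 had higher means at 1500 than at 500 ppm. For LOC100136295 the differences ran from 0.55 to 0.83 with a median of 0.61, and the 500 ppm and 1500 ppm samples did not overlap in any of the 5, which come from 3 clones; 26.3% of all features were separated in that direction. In the feature with the largest of them the ratio was -0.69 and -0.080 at 500 ppm and 0.55 and 0.34 at 1500 ppm. The 500 ppm samples were below the pool and the 1500 ppm samples above it, with a difference of 0.83 ± 0.24 (limma adjusted p = 0.143). Neither dose was called against the pool (limma adjusted p = 0.318 at 500 ppm and 0.138 at 1500 ppm). For the dose difference the limma adjusted p of the 5 ran from 0.143 to 0.319. The feature with the largest difference was called with print blocks centred (1.10, adjusted p = 0.0205) and in the fit of single arrays (0.0364). It was not called with arrays scaled alike or on the Cy3 or Cy5 arrays alone.

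For LOC100136294 the differences were 0.66, 0.33 and 0.11. The feature with the largest one stood at -0.32 and -0.38 at 500 ppm and at 0.32 and 0.31 at 1500 ppm. Its averaged ratio changed sides of the pool between doses, by 0.66 ± 0.20 (limma adjusted p = 0.191). Neither dose was called against the pool (limma adjusted p = 0.294 at 500 ppm and 0.246 at 1500 ppm). Turned to treated over pool, every Cy3 array of this feature was above the pool at both doses and every Cy5 array below it. The smallest of the 3 turned to -0.045 with print blocks centred. In the USDA_OmykA_1.1 gene table LOC100136294 and LOC100136295 lie on the same chromosome with 10 listed genes between them. The files do not say whether probes of the 2 genes share sequence, so cross-hybridisation was not tested.

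**Figure D4:**
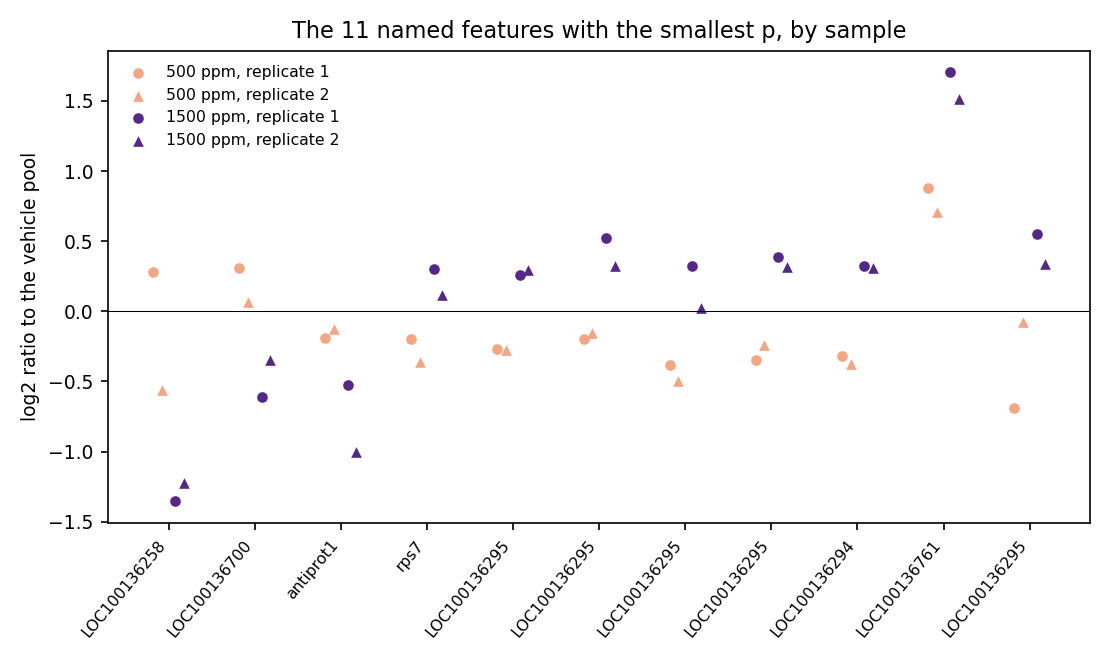
Log2 ratio to the vehicle pool (vertical) in each of the 4 I3C samples for the 11 named features with an unadjusted p under 0.05, ordered by the difference between doses. In the 8 features on the right both 1500 ppm samples lie above both 500 ppm samples, and in LOC100136258, LOC100136700 and antiprot1 they lie below.

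Plasma protease inhibitors, which the liver secretes into blood, gave 3 features from 2 genes. All 3 were lower at 1500 ppm by their means, as were 2273 of 4368 over all features. None was called, where 1.08% of all features were, and the median difference was -0.19 against -0.018 over all features. antiprot1 stood at -0.19 and -0.12 at 500 ppm and at -0.53 and -1.0 at 1500 ppm. The doses did not overlap, though the 1500 ppm samples were spread widely, and the difference was -0.61 ± 0.24 (limma adjusted p = 0.348). ambp, the precursor of alpha-1-microglobulin and bikunin, stood at -0.78 and -0.43 at 500 ppm and at -0.67 and -0.91 at 1500 ppm. The doses overlapped and the difference was -0.19 ± 0.22 (limma adjusted p = 0.73, 95% interval -0.65 to 0.28). The other ambp feature, from the same clone, stood at -0.67 and -0.44 at 500 ppm and at -0.60 and -0.87 at 1500 ppm, a difference of -0.18. Both ambp differences turned positive without centring.

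None of the 3 features of extracellular matrix genes was called between the doses, where 1.08% of all features were. col1a2, which encodes a type I collagen chain, was at -0.79 and -0.60 at 500 ppm and at -0.69 and -0.95 at 1500 ppm. The 4 values overlapped and were all below the pool, and the dose difference of -0.12 ± 0.22 had a 95% interval of -0.59 to 0.34 (limma adjusted p = 0.822). The 2 features of sparc, a collagen-binding matrix protein, differed by -0.25 and 0.17, and neither was called against the pool at either dose. Of the 3 matrix features 1 was higher and 2 lower by their means, against 2095 and 2273 of 4368 over all features. LOC100135826, which the gene table lists with the carbonic anhydrase synonym CA2 and which stands for red cells among the marker lists, was at -0.64 and -0.47 at 500 ppm and at -0.63 and -0.86 at 1500 ppm. All 4 samples were below the pool, and the difference was -0.19 ± 0.20 (limma adjusted p = 0.705, 95% interval -0.63 to 0.24). LOC100136291, listed with the beta globin synonym hbb4, was not on the marker list. It stood at 0.30 and -0.12 at 500 ppm and at 0.041 and 0.12 at 1500 ppm. The doses overlapped, with a difference of -0.0077 ± 0.21 (limma adjusted p = 0.988). That difference was 0.16 on the Cy3 arrays and -0.17 on the Cy5 arrays.

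Of the 5 features of cytosolic chaperones, which fold and stabilise client proteins, 4 were lower and 1 higher at 1500 ppm. Over all features 2273 of 4368 were lower. None of the 5 was called, where 1.08% of all features were, and their median difference was -0.34. The hspa8 feature with the larger difference, for a constitutive member of the hsp70 family, was at 0.56 and 0.43 at 500 ppm and at -0.38 and 0.30 at 1500 ppm. The doses did not overlap, but the 1500 ppm samples stood on opposite sides of the pool, and the difference was -0.53 ± 0.26 (limma adjusted p = 0.453). The hsp90ab1 feature with the largest difference was at -0.037 and -0.21 at 500 ppm and at -0.42 and -0.61 at 1500 ppm, a difference of -0.40 ± 0.21 (limma adjusted p = 0.479). A second hsp90ab1 feature from the same clone differed by -0.34, and by 0.0058 without centring. The third hsp90ab1 feature, from another clone, differed by -0.093 (limma adjusted p = 0.884), and its doses overlapped. The other hspa8 feature, also from a different clone than the first, differed by 0.054.

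The sole named member of the aryl hydrocarbon receptor battery, cyp1a3, was at -0.19 and 0.53 at 500 ppm and at 0.22 and 0.17 at 1500 ppm. The 500 ppm samples spanned both 1500 ppm samples, and the difference was 0.027 ± 0.25 (limma adjusted p = 0.966, 95% interval -0.50 to 0.56). It turned to -0.19 on the Cy5 arrays alone and to -0.33 without 500 ppm replicate 1. In fish fed BNF, the receptor agonist, the cyp1a3 feature stood at 0.16 and 0.030. Whether this feature can report cyp1a induction was not tested, so its small dose difference does not show that cyp1a was unchanged. rps7, a protein of the small ribosomal subunit and the only ribosomal gene named, was at -0.20 and -0.36 at 500 ppm and at 0.30 and 0.11 at 1500 ppm. Its averaged ratio was below the pool at 500 ppm and above it at 1500 ppm, a difference of 0.48 ± 0.20 (limma adjusted p = 0.384). Neither dose was called against the pool (limma adjusted p = 0.411 at 500 ppm and 0.516 at 1500 ppm). As treated over pool, all Cy3 arrays of rps7 were above the pool and all Cy5 arrays below it.

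The remaining lists had few members. LOC100136700, also without a synonym in the gene table, was at 0.31 and 0.064 at 500 ppm and at -0.61 and -0.35 at 1500 ppm. The doses lay on opposite sides of the pool, a difference of -0.66 ± 0.26 (limma adjusted p = 0.357). Neither dose was called against the pool (limma adjusted p = 0.709 at 500 ppm and 0.149 at 1500 ppm). As treated over pool, its Cy3 arrays were all below the pool and its Cy5 arrays all above it. Among lipid genes, pparg, a nuclear receptor of fat storage, differed by -0.44 with a wide 500 ppm pair of -0.19 and 0.81, and by 0.060 without 500 ppm replicate 2; fd6d, a fatty acid desaturase, differed by 0.11. tapbp, which loads peptides onto class I molecules, differed by -0.29 and tap1 by 0.15. The 2 features of sod1, an antioxidant enzyme, differed by -0.060 and 0.042. No member of the estrogen-responsive, immune, hormone or cell cycle lists was among the named features. The immune list did not hold tapbp or tap1, which serve class I antigen processing.

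The 47 features were then followed in the other diets, whose samples entered their choice only through the pooled spread. All ratios below share the vehicle pool, which the I3C dose difference does not use. In fish fed DIM at 500 ppm the 35 lower features had a median ratio of -1.84, and all 35 were below -1, against 3.48% of all features. The 12 higher features had a median of 1.19 there, and 7 were above 1, against 1.63% of all features. At 1500 ppm of DIM the medians were -2.05 and 1.34, with 34 of 35 below -1 and 9 of 12 above 1, against 2.4% and 1.95% of all features. For the same features the medians in I3C were -0.43 and 0.20 at 500 ppm and -1.79 and 1.26 at 1500 ppm. One of the DIM 500 ppm samples and 1 of the E2 samples had their signs turned before the fit, as both arrays of each ran against the others of their dye orientation, and the DIM sample that was not turned gave medians of -1.91 and 1.16.

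In E2-fed fish the 35 lower features had a median of -1.11, with 19 below -1 against 1.24% of all features, and the 12 higher features a median of 0.70, with 4 above 1 against 1.28%. The E2 sample that was not turned gave -1.11 and 0.70 as well. The features differed in this respect: spots 2030307 and 2030308 stood at -0.51 and 0.22 in the E2 samples, while spots 9031205 and 9031206, also lower at 1500 ppm of I3C, stood at -3.00 and -2.97. In BNF-fed fish the medians were -0.26 and -0.16. None of the 35 lower features was below -1 there, against 0.0229% of all features, and 1 of the 12 higher features was above 1, against 0.0916%. That feature was spots 10031205 and 10031206, at 2.84 and 3.44 in the BNF samples. It stood at 0.16 and 0.32 in the E2 samples and at 1.10 to 1.33 in the 4 DIM samples.

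**Figure D5:**
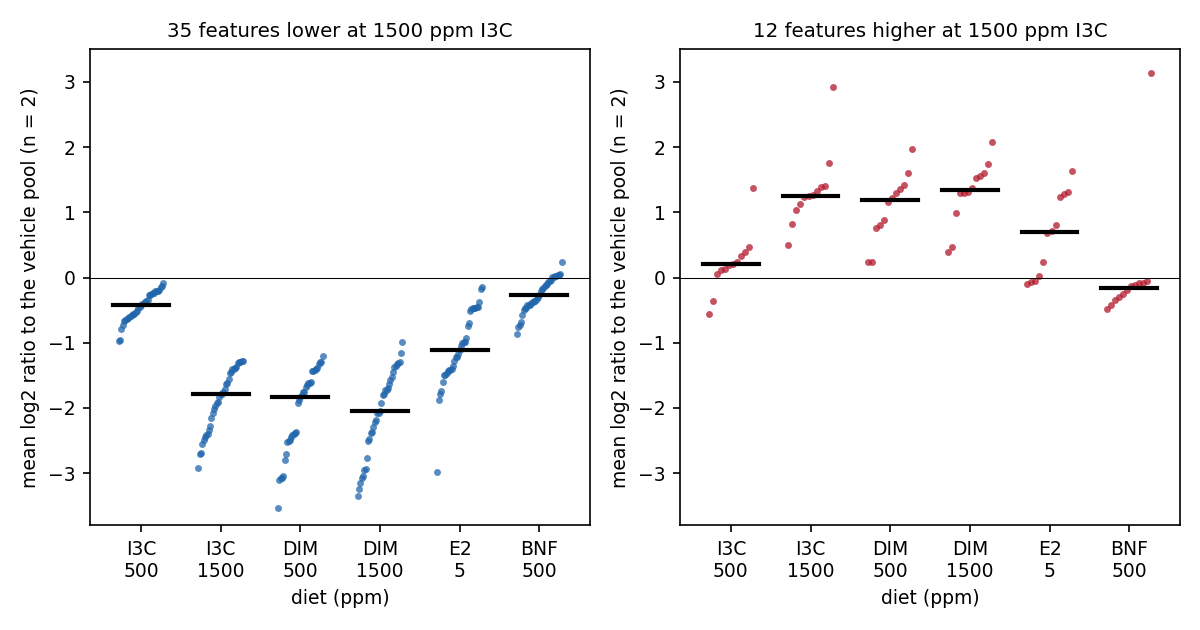
Mean log2 ratio to the vehicle pool (vertical, n = 2 samples per diet) of the 35 lower and the 12 higher features in the 6 diets, with 1 point per feature and a bar at the median. In the 35 lower features the medians are -0.43 and -1.79 for I3C at 500 and 1500 ppm, -1.84 and -2.05 for DIM at those doses, -1.11 for E2 and -0.26 for BNF.

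The dose difference of I3C was set against that of DIM, the dimer formed from I3C, at the same 2 doses. For DIM, limma called 0 of 4368 features between 1500 and 500 ppm, with 54 (1.24%) at an unadjusted p under 0.05. The 35 features lower at the higher I3C dose had a median DIM dose difference of 0.071, and the 12 higher features one of 0.15, with standard errors of 0.19 to 0.44. Because the features were picked on I3C, a smaller difference in DIM is no evidence by itself. In 3 of the 35 the DIM means also fell by over 1, by 1.04 to 1.37, none of them called, while the other 32 lay between -0.13 and 0.45.

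The difference of the 2 dose differences was tested over all features, and limma called 4 (0.0916%), with 208 (4.76%) at an unadjusted p under 0.05. All 4 were among the 35 lower features, and in each the I3C difference was the more negative. The test holds the same I3C difference that chose the 35, so this overlap follows in part from the choice. In spots 7040405 and 7040406 the DIM samples stood at -3.56 and -3.51 at 500 ppm and at -3.42 and -3.29 at 1500 ppm, all below both I3C doses. The dose difference was 0.18 ± 0.22 for DIM and -2.28 ± 0.22 for I3C, and the difference between them -2.46 ± 0.31 (limma adjusted p = 0.00509). In spots 2030307 and 2030308 it was -2.53 ± 0.40 (adjusted p = 0.0364), in spots 9031205 and 9031206 it was -1.75 ± 0.29 (adjusted p = 0.0364), and in spots 4020405 and 4020406 it was -1.70 ± 0.29 (adjusted p = 0.0453). Left-out samples moved this count between 0 and 6: it was 0 without DIM 1500 ppm replicate 2, DIM 500 ppm replicate 1 or I3C 1500 ppm replicate 1, and 1 without DIM 1500 ppm replicate 1 or I3C 500 ppm replicate 1. It was 2 without the turned samples, 1 without the BNF samples and 0 with the signs as deposited, where the turned DIM sample enters inverted.

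Among named features none was called in that test, and 7 of the 49 had an unadjusted p under 0.05, against 4.76% of all features. LOC100136258 had the largest difference, at -1.27 ± 0.43 (limma adjusted p = 0.627), from -1.15 in I3C and 0.12 in DIM. An hsp90ab1 feature stood at -0.78 ± 0.32 and an ambp feature at -0.69 ± 0.31, in both of which the DIM mean was higher at 1500 ppm. Another hsp90ab1 feature from the same clone was also among the 7, so these are not 7 separate genes. A LOC100136295 feature stood at 0.68 ± 0.29 and a LOC100136294 feature at 0.65 ± 0.29. The adjusted p of the 6 features other than LOC100136258 ran from 0.894 to 0.998.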

How the data were processed

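Two-colour spotted arrays were read with a ScanArray scanner and QuantArray, per the labels. The authors' deposited values cover 8736 spots and are taken as log2 ratios in all columns but 1; that column, of the first BNF sample, holds deposited linear ratios and was converted. How background, normalisation, log base and direction were set is not given in the sources used here; intensities, slides and scan dates were not used here, so dim spots and batches were not examined. Arrays were centred on their medians, adjacent spots averaged and the swap halved to 1 value per sample; adjacent spots count as duplicates. The first E2 sample and the first DIM sample at 500 ppm were turned on both arrays, because their dye component correlated at -0.80 and -0.74 (medians) with the other samples. The 12 samples were fitted in limma 3.58.1 (R 4.3.3), checked on simulated data, with Benjamini-Hochberg adjustment. The test against the pool leaves out the pool's own spread. Named features are those with an unadjusted p under 0.05 between doses, those called against the pool, and up to 4 examples per list. To these tapbp, tap1 and LOC100136291 were added. The unnamed ones are the 2 largest called differences each way. The annotation named 98 spots; 27 of 33 Entrez genes were in the USDA_OmykA_1.1 gene table, which renamed hsp90ba and hsc70a. The groups share replicate numbers, but the labels state no shared tank or day: no block was used. Members and lists were chosen with earlier results of these data known.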

Additional observations from a re-analysis of the deposited data

Results flagged for a closer look

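Of all features, 4 had a dose difference that was not the same for I3C and DIM by the test of the difference itself, on the log2 scale. They were spots 7040405 and 7040406 at -2.46, spots 2030307 and 2030308 at -2.53, spots 9031205 and 9031206 at -1.75 and spots 4020405 and 4020406 at -1.70, each the I3C difference minus the DIM difference. In all 4 both 1500 ppm I3C samples were below both 500 ppm I3C samples, as in 21.5% of all features. The I3C difference is itself part of the test that picked them. Over 21 alternative fits, the first of these was called in 15, the second in 11, the third in 6 and the last in 5. With 2 samples per diet no group was large enough for a check on single outlying samples.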

How the results depend on the processing

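The 47 calls between I3C doses became 0 with arrays scaled alike, also with the I3C groups alone (chosen after seeing the data), 0 with signs as deposited, 97 with the 24 arrays fitted singly, 15 on Cy3 arrays, 4 on Cy5 arrays, 75 with array weights and 14 to 145 without a sample. The signs as deposited touch no I3C array and act through the pooled spread. For the scaling the cause was not tested. With the 24 arrays fitted singly the within-sample correlation was -0.0083, so the 2 arrays of a sample counted nearly as separate samples. A replicate block gave 50 calls, and same-numbered samples of the 2 doses deviated together at r = 0.22 over features. The 396 calls at 1500 ppm against the pool became 213 with arrays scaled alike, 4 with signs as deposited, 691 of 8736 single spots and 191 to 218 without a sample. The 33 at 500 ppm became 818 uncentred (809 lower), 0 scaled alike, 0 with signs as deposited, 72 with single arrays, 250 with this group alone, 21 without the turned samples and 16 to 152 without a sample. The 4 calls of I3C against DIM became 0 scaled alike, 23 with single arrays, 2 on Cy3 and 0 on Cy5 arrays, 2 without the turned samples, 1 without BNF, 0 with signs as deposited, 2 with single spots and 0 to 6 without a sample. Tests against the pool on 1 dye were not run, as dye bias does not cancel there.

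The named differences that turned sign were uncalled. Uncentred, sparc turned to 0.091, the other LOC100136761 features to 0.30 and 0.32, hsp90ab1 to 0.0058, col1a2 to 0.22, ambp to 0.16 and 0.17, tapbp to 0.058 and LOC100135826 to 0.15. On Cy3 arrays fd6d turned to -0.16, LOC100136761 to 0.18, sparc to -0.19, col1a2 to 0.30, tapbp to 0.32 and ambp to 0.13, and on Cy5 arrays cyp1a3 to -0.19. Scaled alike, with all or I3C groups, LOC100136761 turned to 0.049 and sparc to -0.013. With a gene's features averaged LOC100136761 was 0.25 and sparc -0.040. With print blocks centred LOC100136761 turned to 0.060 and 0.086, LOC100136294 to -0.045 and ambp to 0.095. On single spots LOC100136761 turned to 0.045 and 0.074, LOC100136294 to -0.13, col1a2 to 0.11, cyp1a3 to -0.10 and sparc to -0.38. Without a sample the other LOC100136761 features ran from -0.16 to 0.064 and from -0.22 to 0.17, col1a2 from -0.25 to 0.0046, cyp1a3 from -0.33 to 0.39, sparc from -0.24 to 0.59 and pparg from -0.94 to 0.060.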
